A study of Mus musculus with 6 samples.

Results

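Cytokine receptor chains for interleukin-4, interleukin-13, interleukin-15, interleukin-10 and the interferons were followed in mouse liver 1 h after interleukin-6 (IL-6). The rule named 10 genes, and 9 of them, Il4ra, Il13ra1, Il15ra, Il10ra, Il10rb, Ifngr1, Ifngr2, Ifnar1 and Ifnar2, had a probe set that the platform table gave exactly that symbol, among 19938 genes measured in all. Each of the 9 had 1 such probe set and no probe set shared with another gene. Il2rg, the common gamma chain, was not analysed here because no probe set was listed under its symbol. The tested animals received 100 ng of IL-6 per mouse by intraperitoneal injection and were represented by 3 arrays of whole liver. The other group received saline and was represented by 3 arrays as well, and livers of both were taken 1 h after injection. All were 10-week-old male mice of the inbred strain C57BL6, fasted for 16 h before injection and carrying no allele named in the labels. Values are log2 expression per probe set from 1-colour Affymetrix arrays, made by the authors with RMA.

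These receptors are pairs or trios of membrane chains that have no enzyme activity of their own and hand the signal to Janus kinases (JAKs) bound to their tails, which then phosphorylate STAT transcription factors. The chains are shared: the IL-4 receptor alpha chain pairs with the common gamma chain or with IL-13 receptor alpha 1, and the IL-10 receptor beta chain serves IL-10, IL-22 and the lambda interferons. IL-6 uses another receptor, built on gp130, and signals mainly through STAT3, so these chains are not part of its own receptor. In liver, hepatocytes, Kupffer cells and lymphocytes carry different sets of them. In bulk tissue such as this, fewer cells of a type and less RNA per cell cannot be told apart.

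The arrays separated by group along the first principal component of all genes, and saline replicate 2 and IL-6 replicate 3 stood apart from the other 4 arrays along the second. The 9 measured hepatocyte markers had mean log2 levels from 9.55 to 13.4, where the median gene had 5.77. Medians of the arrays lay between 5.42 and 5.48. In limma, 77 genes were called higher and 7 lower after IL-6 at an adjusted p under 0.05, which is 0.421% of all genes. The labels list the arrays as separate samples and do not state that each is a different mouse, so the spread behind the p-values may be partly technical.

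None of the 9 receptor chains passed the test 1 h after IL-6: 0 of 9 were called by limma, beside the 0.421% of all genes. At an unadjusted p under 0.05, 2 of 9 passed, Il15ra and Ifnar2, both with higher values after IL-6, where 6.62% of all genes passed in either direction and 3.78% with higher values. Differences were small. The largest, that of Il13ra1, was 0.33 on the log2 scale (1.26-fold), and the others ran from -0.08 to 0.30. The median difference of the 9 was 0.10, where that of all genes was 0.0026, and 7 of the 9 were positive, where 51.1% of all genes were. In 4 of 9 members, Il15ra, Ifnar2, Il4ra and Ifnar1, the IL-6 values did not overlap the saline values, as in 11.6% of all genes. All 4 lay higher after IL-6, a direction in which 6.15% of all genes did not overlap. These are counts over 9 genes chosen with earlier results of these data known, and no test was made of them.

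**Figure D1:**
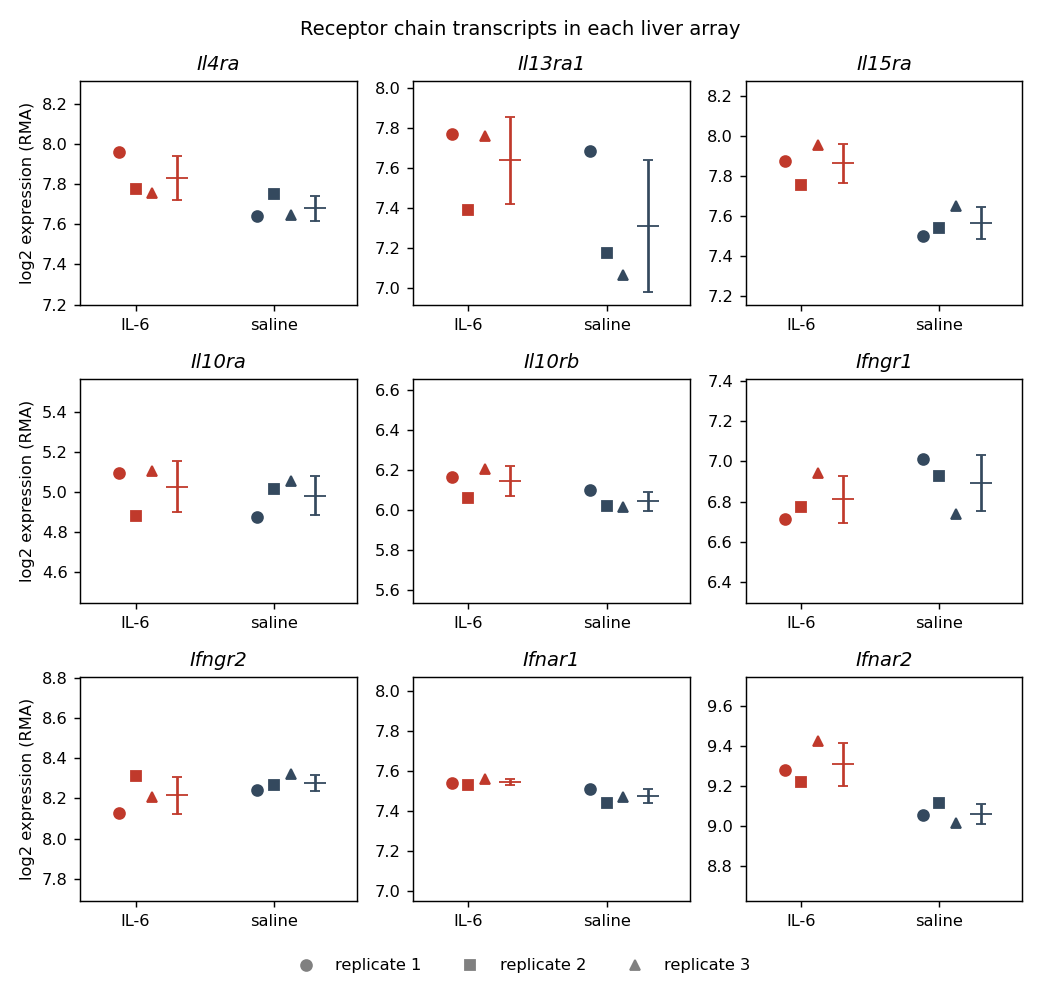
Log2 expression (RMA, y axis) of each receptor chain in the 3 IL-6 arrays (red, left) and the 3 saline arrays (dark, right). Symbols mark the replicate number, bars give the mean ± SD (n = 3), and every panel spans the same number of log2 units. Il15ra and Ifnar2 show a clear gap between the groups, Il4ra and Ifnar1 a narrow one, and the other 5 chains overlap.

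Il15ra encodes the chain that binds IL-15 with high affinity and presents it to neighbouring lymphocytes. Its log2 values (probe set 10469289) were 7.88, 7.76 and 7.96 after IL-6, against 7.50, 7.54 and 7.65 after saline. The lowest IL-6 array lay 0.11 above the highest saline array. Il15ra thus averaged 7.86 ± 0.10 after IL-6 and 7.57 ± 0.08 after saline (SD, n = 3 each), a log2 difference of 0.30 ± 0.08 (standard error), or 1.23-fold. The 95% interval ran from 0.11 to 0.48, and the gene stood 286th of 19938 by p (limma unadjusted p = 0.00549, adjusted p = 0.383). With this standard error, a difference of 0.485 would have been needed for a call among these genes. Il15, the ligand, had 3.87 after IL-6 and 3.72 after saline, a difference of 0.15 ± 0.08 (limma adjusted p = 0.843) and levels below the 25th percentile of all genes (4.59).

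RefSeq lists 2 start sites for Il15ra on GRCm38.p6, and their promoters are shown because Il15ra had the smallest p of the chains. Each runs from 250 bases before to 50 bases after its start site. The first lies at chr2:11705043-11705342 and the second at chr2:11705462-11705761, both on the + strand. Neither holds TTCNNNGAA, the pattern bound by STAT dimers, or its STAT6-type variant, in which TTC and GAA stand 4 bases apart in place of 3. Both patterns read the same on either strand. Capitals mark GAAANNGAA, the core of interferon-response elements bound by IRF factors, or its reverse complement. This pattern was searched for after the second sequence had been seen.
Il15ra, first start site: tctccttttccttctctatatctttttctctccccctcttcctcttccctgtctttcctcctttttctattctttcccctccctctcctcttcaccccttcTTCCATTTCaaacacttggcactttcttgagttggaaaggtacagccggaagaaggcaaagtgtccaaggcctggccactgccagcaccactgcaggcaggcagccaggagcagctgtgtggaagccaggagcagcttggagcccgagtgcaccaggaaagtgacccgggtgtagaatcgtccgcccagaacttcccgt
Il15ra, second start site: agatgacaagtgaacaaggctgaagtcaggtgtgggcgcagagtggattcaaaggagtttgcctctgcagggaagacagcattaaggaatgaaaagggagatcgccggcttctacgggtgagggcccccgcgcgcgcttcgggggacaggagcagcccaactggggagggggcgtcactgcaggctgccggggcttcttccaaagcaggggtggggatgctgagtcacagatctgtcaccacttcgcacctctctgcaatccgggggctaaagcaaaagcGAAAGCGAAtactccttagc
In the first promoter the match lies on the - strand and begins 149 bases before the start site. In the second it begins 30 bases after it. Of 32851 RefSeq promoters of this length, 8.30% hold TTCNNNGAA, 6.95% the STAT6-type variant and 8.56% GAAANNGAA on either strand. A match describes letters only, since binding was not measured.

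Ifnar2 encodes the chain of the type I interferon receptor that binds interferon-alpha and interferon-beta most tightly. Its log2 values (probe set 10436830) were 9.28, 9.22 and 9.43 after IL-6, against 9.05, 9.11 and 9.02 after saline. All IL-6 arrays lay above all saline arrays, with a gap of 0.11. Means were 9.31 ± 0.11 after IL-6 and 9.06 ± 0.05 after saline (SD, n = 3 each), a log2 difference of 0.25 ± 0.08 (1.19-fold, 95% interval 0.07 to 0.43). It stood 482nd by p (limma unadjusted p = 0.0129, adjusted p = 0.531).

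Ifnar1, the other chain of that receptor, had 7.54, 7.53 and 7.56 after IL-6, against 7.51, 7.44 and 7.47 after saline. Its groups also did not overlap, but by 0.022 only, and its spread was the narrowest of the 9 after IL-6 (SD 0.02, n = 3). The log2 difference was 0.07 ± 0.07 (1.05-fold, 95% interval -0.08 to 0.22, limma adjusted p = 0.933). The log2 ratio of Ifnar1 to Ifnar2 was -1.74, -1.69 and -1.86 in the IL-6 arrays, against -1.54, -1.67 and -1.54 in the saline arrays, a difference of -0.18 with a 95% interval of -0.36 to 0.0045. The groups did not overlap, which in 3 against 3 arrays gives the smallest p this test allows (exact permutation test, two-sided, p = 0.1, adjusted p = 0.4 over 4 pairs of chains), so the test could not have passed, and the interval narrowly holds 0.

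The Ifnar2 promoter is shown because Ifnar2 is the other chain with an unadjusted p under 0.05. It lies at chr16:91372533-91372832 on the + strand of GRCm38.p6, and capitals mark its TTCNNNGAA match, which begins 214 bases before the start site.
Ifnar2: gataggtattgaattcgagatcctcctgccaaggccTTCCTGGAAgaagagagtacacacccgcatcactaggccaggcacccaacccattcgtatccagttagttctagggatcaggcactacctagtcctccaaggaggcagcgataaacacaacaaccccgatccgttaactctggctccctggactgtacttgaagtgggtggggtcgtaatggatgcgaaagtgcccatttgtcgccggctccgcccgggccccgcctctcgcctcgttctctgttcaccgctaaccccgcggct
The 8 genes of the rule with an entry among the RefSeq promoters gave 9 promoters, with none for Il10ra and Il10rb. That of Il2rg, which had no probe set, is among the 9 and held none of these patterns. TTCNNNGAA was found in 2 of the 9, those of Ifnar2 and Ifnar1, where the match TTCACGGAA begins 5 bases before the start site. The STAT6-type variant was found in 1, that of Ifngr2, as TTCCCGGGAA beginning 91 bases before the start site. GAAANNGAA was found in the 2 promoters of Il15ra.

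The type II interferon receptor had lower mean values after IL-6, within the spread of the arrays. Ifngr1, the chain that binds interferon-gamma, had 6.71, 6.78 and 6.94 after IL-6, against 7.01, 6.93 and 6.74 after saline, a log2 difference of -0.08 ± 0.10 (95% interval -0.30 to 0.14, limma adjusted p = 0.950). Ifngr2, the chain that completes the signalling receptor, had 8.12, 8.31 and 8.21 after IL-6, against 8.24, 8.27 and 8.32 after saline, a difference of -0.06 ± 0.08 (95% interval -0.24 to 0.11, limma adjusted p = 0.955). In both genes the groups overlapped, and 1 of 3 IL-6 arrays lay above the saline mean. The log2 ratio of Ifngr1 to Ifngr2 averaged -1.40 ± 0.13 after IL-6 and -1.38 ± 0.18 after saline (SD, n = 3 each), a difference of -0.02 with a 95% interval of -0.26 to 0.22 (exact permutation test, p = 0.9, adjusted p = 0.9).

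Il4ra, which binds IL-4 and signals mainly through STAT6, had 7.96, 7.78 and 7.76 after IL-6, against 7.64, 7.75 and 7.65 after saline. The groups were separated by 0.007 only, and IL-6 replicate 1 stood above the other 5 arrays. The log2 difference was 0.15 ± 0.08 (1.11-fold, 95% interval -0.04 to 0.34, limma adjusted p = 0.849). Without IL-6 replicate 1 it was 0.09.

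Il13ra1, the partner chain that binds IL-13, had 7.77, 7.39 and 7.76 after IL-6, against 7.68, 7.18 and 7.07 after saline. Saline replicate 1 lay above IL-6 replicate 2, so the groups overlapped, and saline values spanned 0.62 and IL-6 values 0.38. Il13ra1 had the largest difference of the 9 together with the largest standard error, 0.33 ± 0.16 (1.26-fold, 95% interval -0.04 to 0.70, limma adjusted p = 0.812). Without saline replicate 1 its difference was 0.52, and without saline replicate 3 it was 0.21. The log2 ratio of Il4ra to Il13ra1 differed by -0.18 (95% interval -0.56 to 0.20, exact permutation test, p = 0.6, adjusted p = 0.8).

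The genes whose array values, centred on their own saline mean, lay nearest to those of Il13ra1 over the 6 arrays were Rcn3, Cox7a1 and Gm10615, at root mean square distances of 0.08, 0.10 and 0.11. Saline replicate 1 was the highest saline array in each of the 3, at 0.28, 0.29 and 0.30 above the saline mean, beside 0.37 in Il13ra1. The 3 genes were picked by a distance that includes this array, so the likeness follows from the choice and is no separate result. None of the 3 was called (limma adjusted p from 0.583 to 0.877).

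Il10ra, the chain that binds IL-10 and is carried mainly by leukocytes, had 5.09, 4.88 and 5.11 after IL-6, against 4.88, 5.02 and 5.06 after saline. The difference was 0.04 ± 0.09 (95% interval -0.16 to 0.25, limma adjusted p = 0.970), with overlapping groups. Its mean level was the nearest of the 9 to the 25th percentile of all genes, and none of the 9 lay below it. Il10rb, the shared accessory chain, had 6.16, 6.06 and 6.21 after IL-6, against 6.10, 6.02 and 6.02 after saline, a difference of 0.10 ± 0.08 (95% interval -0.07 to 0.27, limma adjusted p = 0.906). Saline replicate 1 lay within the IL-6 range. The log2 ratio of Il10ra to Il10rb differed by -0.05 (95% interval -0.25 to 0.15, exact permutation test, p = 0.6, adjusted p = 0.8).

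**Figure D2:**
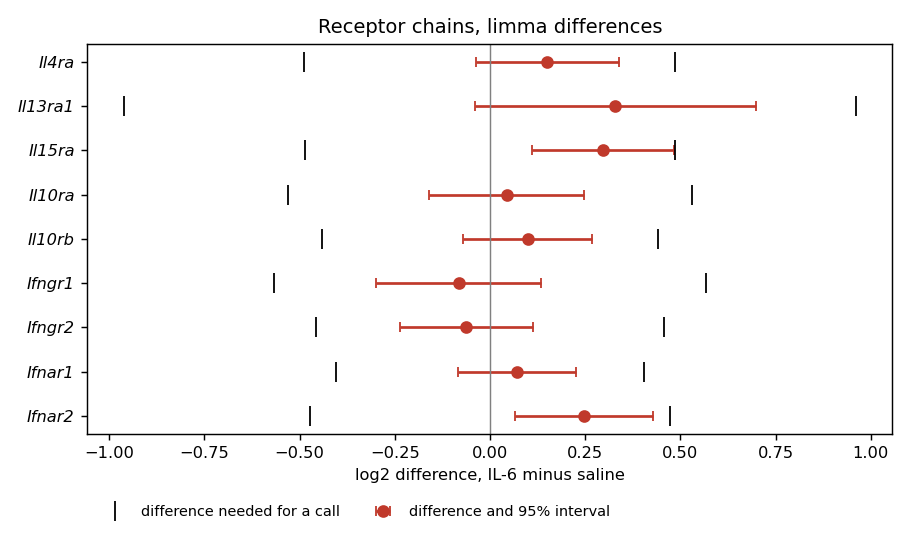
Log2 difference, IL-6 minus saline (x axis), of each receptor chain with its limma 95% interval (red, n = 3 arrays per group). Black ticks mark the difference each gene would have needed for a call at its own standard error. No point reaches its tick, and the intervals of Il15ra and Ifnar2 alone leave out 0.

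The intervals bound only the difference in whole-liver array values, and the spread behind them may be partly technical. Changes within single cell types were not measured. For 8 of the 9 chains the 95% interval lay within a 1.5-fold change in either direction, and for Il13ra1 it reached 1.62-fold higher. Intervals of 7 of the 9 held 0. The difference needed for a call ran from 0.404 for Ifnar1 to 0.961 for Il13ra1, and the smallest difference that was called in any gene was 0.454.

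Relative to the saline mean of each gene, the 9 chains averaged 0.14, 0.05 and 0.18 in IL-6 replicates 1 to 3, against 0.04, -0.004 and -0.03 in saline replicates 1 to 3. IL-6 replicate 2 and saline replicate 1 were nearly level. Leaving out each array in turn changed the sign of 1 of the 9 differences, that of Il10ra without saline replicate 1 (-0.0093), and called none. Il15ra and Ifnar2 stayed under an unadjusted p of 0.05 whichever array was left out, with differences from 0.25 to 0.35 and from 0.19 to 0.29, and adjusted p-values in limma of up to 0.698 and 0.788.

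**Figure D3:**
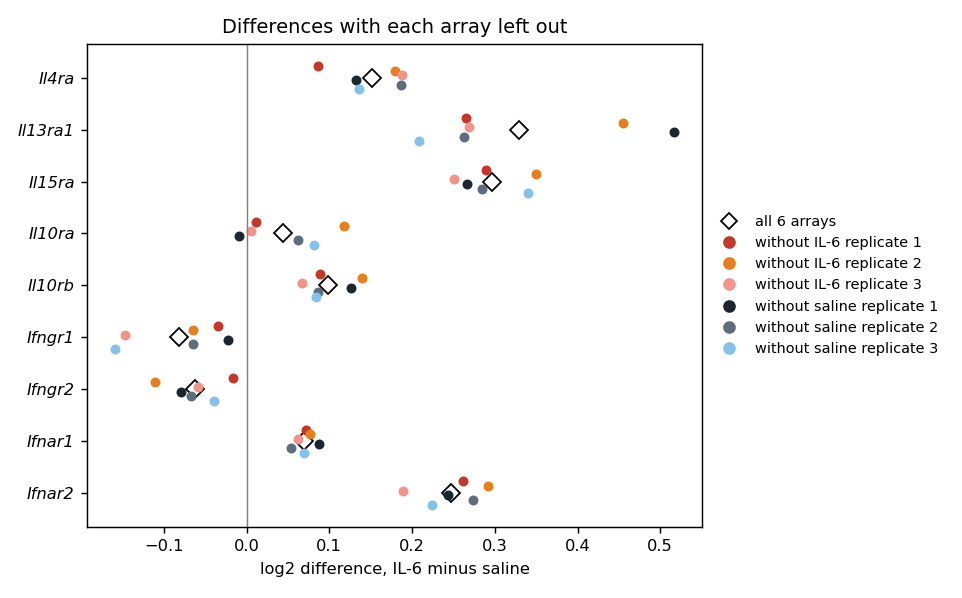
Log2 difference, IL-6 minus saline (x axis), of each receptor chain with all 6 arrays (open diamonds) and with each array left out (coloured points). Il13ra1 ranges most widely, from 0.21 to 0.52, and Il10ra crosses 0.

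Several of the chains are neighbours. On mouse chromosome 16 of the RefSeq table, Ifnar2, Il10rb, Ifnar1 and Ifngr2 follow each other in this order, and no other protein-coding gene lies between them. Their differences in that order were 0.25, 0.10, 0.07 and -0.06, of which that of Ifnar2 alone had an interval that left out 0, and differences among the neighbours were not tested beyond the pair of Ifnar1 and Ifnar2. The other chains lie on chromosomes 2 (Il15ra), 7 (Il4ra), 9 (Il10ra), 10 (Ifngr1) and X (Il13ra1).

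Other chains of the same receptor families were not called either, 0 of 12 in limma and 1 at an unadjusted p under 0.05, with a median difference of -0.03 and 4 of 12 positive. The smallest p was that of Il22ra1, the hepatocyte chain that joins the IL-10 receptor beta chain to bind IL-22. It had 6.22, 6.37 and 6.03 after IL-6, against 6.60, 6.42 and 6.56 after saline, a difference of -0.32 ± 0.10 (limma adjusted p = 0.496) with no overlap of the groups, and its other probe set had -0.47. Il13ra2, a decoy receptor for IL-13, had a difference of -0.17 ± 0.11 (limma adjusted p = 0.886), at levels below the 25th percentile. Of 20 measured cytokine ligands none was called in limma, 14 lay below the 25th percentile, and 4 passed at an unadjusted p under 0.05. The 2 of smallest p were Ifna2 (-0.32 ± 0.11, limma adjusted p = 0.531) and Ifnk (0.32 ± 0.11, limma adjusted p = 0.541), both type I interferons.

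Among genes acting below the receptors a few were called. Of 12 measured JAKs, STATs and adaptors, 2 rose in limma and 10 were not called, with a median difference of 0.17, and 6 had higher values at an unadjusted p under 0.05. Irs2, an adaptor of the insulin and IL-4 receptors, had 8.12, 7.87 and 8.09 after IL-6, against 7.25, 6.79 and 7.22 after saline, and rose by 0.94 ± 0.13 (limma adjusted p = 0.0151). Stat3 rose by 0.52 ± 0.09 at the edge of the threshold (limma adjusted p = 0.04996). Named for their role and not by the rule, Irf9 and Stat2, which act below the type I interferon receptor, had differences of 0.46 ± 0.09 and 0.41 ± 0.13 and were not called (limma adjusted p = 0.107 and 0.498). Jak1 and Tyk2, kinases of the type I interferon and IL-10 receptors, had differences of 0.04 ± 0.07 and 0.11 ± 0.08, and Stat6, which serves Il4ra, 0.05 ± 0.07, likewise named for their role (limma adjusted p from 0.899 to 0.963). The 14 negative regulators not called in limma stood beside 3 that rose: Socs3, an inhibitor of gp130 signalling, by 3.15 ± 0.11, Cish by 1.22 ± 0.16 and Socs2 by 0.86 ± 0.13 (limma adjusted p from 1.45e-06 to 0.0243). The other probe sets of Socs3 and Socs2 had differences of 1.79 and 1.41. Socs1, which restrains interferon and IL-4 signalling and was also named for its role, had a difference of 0.01 ± 0.10 (limma adjusted p = 0.992).

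Of 22 measured interferon target genes, 3 rose in limma and 19 were not called, and 20 of 22 differences were positive with a median of 0.14. At an unadjusted p under 0.05, 5 had higher values and 1 had lower values. The lower one, Oas1a, named for its direction and not by the rule, had a difference of -0.42 ± 0.12 (limma adjusted p = 0.441). Mx2, a gene of a family of antiviral GTPases, had 6.67, 6.61 and 6.79 after IL-6, against 4.91, 5.41 and 4.91 after saline. It rose by 1.61 ± 0.13 (limma adjusted p = 0.000696). Irf1, a transcription factor induced by interferons and by STAT signalling, rose by 1.07 ± 0.11 (limma adjusted p = 0.00361), while its other probe set had a difference of 0.02. Iigp1, a GTPase induced by interferon-gamma, rose by 0.66 ± 0.09 (limma adjusted p = 0.0154). Of 16 IL-4 and IL-13 target genes none was called in limma, 1 passed at an unadjusted p under 0.05 (Tgm2, a transglutaminase, 0.23 ± 0.09, adjusted p = 0.644), and the median difference was 0.01. Retnla, a secreted product of IL-4-activated macrophages, had 0.25 ± 0.12 (limma adjusted p = 0.788). Of these 16 genes, 8 lay below the 25th percentile of all genes, Retnla among them.

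Leaving out single arrays ended the calls of 5 of these genes. Irs2 lost it on removing IL-6 replicate 1 or IL-6 replicate 3, and Cish on removing saline replicate 1 or saline replicate 3. Iigp1 lost it on removing any 1 of the IL-6 arrays or saline replicate 3, Socs2 on removing any but saline replicate 1, and Stat3 on removing any but IL-6 replicate 2. The highest adjusted p in limma was then 0.101 for Irs2, 0.058 for Cish, 0.087 for Iigp1, 0.145 for Socs2 and 0.220 for Stat3. Socs3, Mx2 and Irf1 kept theirs, and with its probe sets averaged Irf1 had a difference of 0.55 and kept its call. When every probe set was tested, Socs3 and Mx2 were the called genes of these lists that kept their calls, and Irf1 had a limma adjusted p of 0.0813. Without saline replicate 2 and IL-6 replicate 3 together, a choice made after seeing the data, Socs3, Mx2 and Cish kept their calls and Irf1, Irs2, Socs2, Iigp1 and Stat3 lost them.

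**Figure D4:**
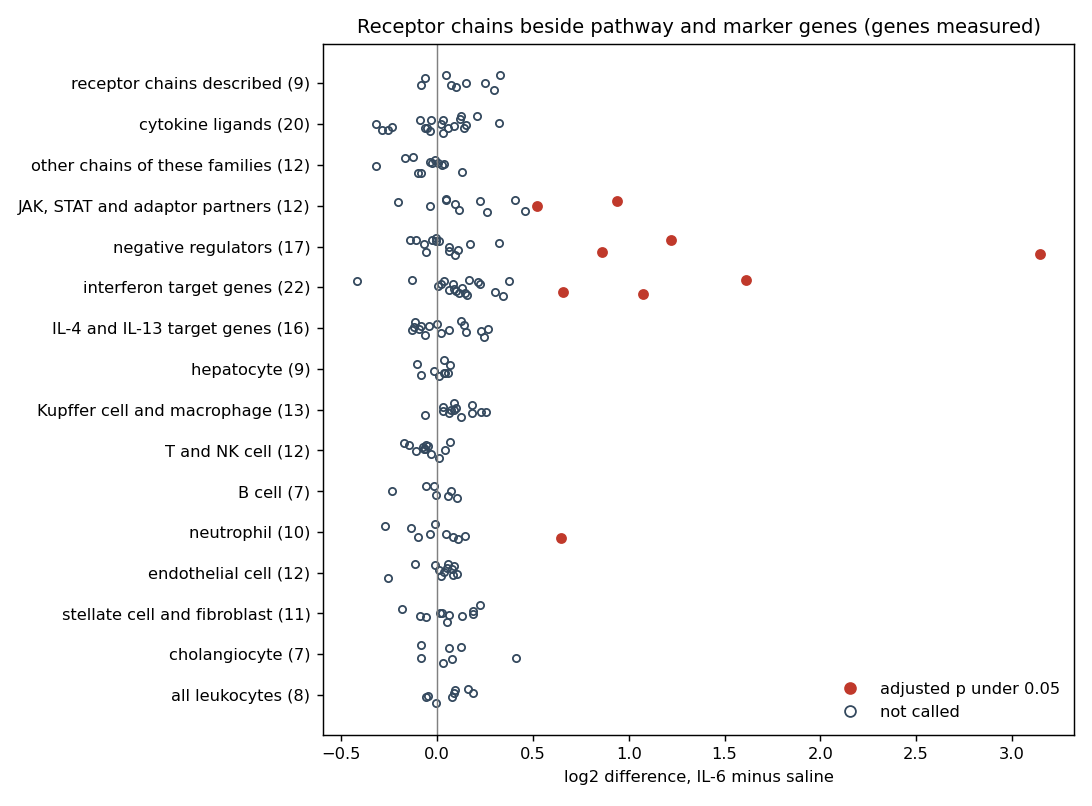
Log2 difference, IL-6 minus saline (x axis), of the 9 receptor chains and of the genes measured in each pathway and marker list (rows, number of genes in brackets). Red filled points were called by limma at an adjusted p under 0.05 and open points were not; vertical scatter within a row has no meaning. No receptor chain is filled, and the filled points lie among signalling partners, negative regulators, interferon targets and, with S100a8, neutrophil markers.

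Few markers of the cell types that could carry these chains passed the test. Among 9 marker lists with 89 measured genes, limma called 1 gene, the neutrophil marker S100a8 (0.65 ± 0.09, adjusted p = 0.0211). This call was lost on removing any 1 of the other arrays than IL-6 replicate 3 (highest limma adjusted p 0.128). S100a8 lay below the 25th percentile of all genes, with means of 4.24 after IL-6 and 3.60 after saline. Of 10 neutrophil markers 5 had positive differences, and S100a9 had -0.01 ± 0.07 (limma adjusted p = 0.990). Of 13 Kupffer cell and macrophage markers 12 had positive differences, with a median of 0.09, and those of smallest p were Timd4 (0.25 ± 0.10) and C1qb (0.23 ± 0.10), with limma adjusted p of 0.697 and 0.716. Relative to saline they averaged 0.004, 0.28 and 0.04 in IL-6 replicates 1 to 3, against 0.04, 0.04 and -0.08 in saline replicates 1 to 3. IL-6 replicate 2 was thus the highest array for these markers on average. The 8 markers of all leukocytes averaged 0.06, 0.19 and -0.06 after IL-6, against 0.16, -0.13 and -0.04 after saline, with overlapping groups and a median difference of 0.08. Medians of the remaining lists ran from -0.06 for T and NK cells to 0.06 for cholangiocytes. Their genes of smallest p included Sox9, a cholangiocyte transcription factor (0.41 ± 0.11, limma adjusted p = 0.326), and Hgf, a growth factor made by stellate cells (0.22 ± 0.08, limma adjusted p = 0.620). The other marker genes that the naming rule gives, Cps1, Asgr1, Cd8a, Gzma, Ms4a1, Cd79b, Ly6g, Vwf, Lyve1, Ecm1, Krt19, Itgb2 and Ptprc, had differences from -0.27 for Ly6g to 0.19 for Ptprc (limma adjusted p from 0.655 to 0.948). No defining marker was at 0, since these log2 values have no true zero, and 7 of 12 T and NK cell, 4 of 7 B cell and 6 of 10 neutrophil markers lay below the 25th percentile of all genes. The part of cell composition in the receptor values was not tested.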

How the data were processed

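Whole-liver total RNA was biotin-labelled and measured on 1-colour Affymetrix arrays, 1 per sample. The deposited values are log2 expression per probe set that the authors made by RMA, as the submitters' processing notes state. This method subtracts background, gives all arrays the same quantiles and summarises the probes of a set, so large changes can be compressed and a shift of most genes lost. Version, settings and genome build: not given in the sources used here. Scanner intensities were not used here.

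Of 35556 probe sets, 21789 had exactly 1 gene symbol in the platform table and 21698 were matched by gene ID to the RefSeq table of GRCm38.p6. Where a gene had more than 1 probe set (999 genes), the probe set of highest mean stood for it. This gave 19938 genes, and dim ones were not removed. IL-6 was compared with saline by limma 3.58.1 (R 4.3.3; lmFit, eBayes), two-sided, with Benjamini-Hochberg adjustment over all 19938 genes and a threshold of 0.05. The script was tested on simulated data. The number of arrays limits precision: the median standard error was 0.089 and an exact permutation test of 3 against 3 cannot give a p under 0.1. The difference needed for a call is a gene's standard error times the moderated t of the largest unadjusted p called (0.00021).

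Chain pairs were compared by exact permutation of their log2 ratio. Of 5 pairs planned, that of Il4ra with Il2rg was not analysed here. All members were named, with up to 6 called genes of each list, or its 2 genes of smallest p where fewer than 2 were called, and the 3 genes nearest to the member of largest difference. Members, lists, tests and alternatives were chosen with earlier results of these data known. Promoters come from RefSeq on GRCm38.p6 and were searched with Python 3.11.15. Figures were drawn with matplotlib 3.10.9.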

Additional observations from a re-analysis of the deposited data

How the results depend on the processing

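None of the 9 receptor chains was called by limma under any of 16 alternatives: median centring, cyclic loess, removal of genes below the 25th percentile, array weights, averaged probe sets per gene, all probe sets tested, a variance trend (plain or robust), the replicate block, leaving out each of 6 arrays, and leaving out together saline replicate 2 and IL-6 replicate 3, the last chosen after seeing the data. Il15ra and Ifnar2 passed an unadjusted p under 0.05 in all 16, and Il13ra1 in 4 of 16. The lowest adjusted p was 0.218 for Il15ra and 0.297 for Ifnar2. Leaving out single arrays gave differences from -0.0093 to 0.12 for Il10ra, and of the log2 ratio of Ifngr1 to Ifngr2 from -0.12 to 0.0567, both crossing 0.

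With every probe set tested, 16 rose and 1 fell in place of 77 and 7 genes; more tests were adjusted for, and further causes were not tested. Without those 2 arrays, 31 rose and 2 fell, 3 genes of the pathway lists were called in place of 8 and 0 marker genes in place of 1, and the ratio of Il4ra to Il13ra1 reversed to 0.0202. Leaving out each array gave 45 to 67 higher and 3 to 5 lower genes, 4 to 6 called genes of the pathway lists and 0 to 1 marker genes. The marker call was also lost (0 genes) on removing genes below the 25th percentile, where S100a8 itself is removed, and with the replicate block; for the latter the cause was not tested. Same-numbered arrays did not deviate together (correlations 0.08, -0.12 and -0.09). The labels name no pairing, and such correlations cannot settle whether the samples were paired. The replicate block gave 59 higher and 6 lower genes and 0 receptor chains, ended the calls of Stat3, Iigp1 and S100a8, with a difference for Il15ra of 0.30 (limma adjusted p = 0.494). Signal over background could not be assessed per probe set.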
